A study of Arabidopsis thaliana with 4 samples.

Results

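The genes described here encode the cytosolic 60S ribosomal proteins from P0 and L3 to L18a, without L5 and L11. They are 49 genes in 18 protein families, among the 33341 genes counted, and were taken by gene identifier from a list, paralog by paralog. The material was whole Arabidopsis thaliana seedlings of 12 days after germination, grown on MS medium with 1% sucrose in days of 16 h of light and 8 h of darkness at 22 °C. The groups were the wild type Col with 2 libraries, the mutant atprmt3 with 1 library and the mutant rps2a2b with 1 library, and all groups shared these growth conditions. The labels give the genotypes by these names and state neither the alleles nor the affected loci. PRMT3 is a protein arginine methyltransferase, and RPS2, a protein of the small ribosomal subunit, is its best known substrate in fission yeast and mammals.

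The large ribosomal subunit holds the peptidyl transferase centre, where peptide bonds are made, and the tunnel through which the new chain leaves. Its proteins are used in equal numbers per ribosome, apart from the stalk proteins P1 and P2, which are not among these genes. In Arabidopsis each protein is encoded by several paralogs, so the supply of a protein is the sum over the paralogs of its family. Many plant ribosomal protein genes carry short promoter elements, among them the telo-box and the site II element, that are known from growing tissue.

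The promoters of 3 pairs of paralogs are shown because the members of each pair differed in their response, and were chosen with those values known. Each runs from 250 bases before the annotated gene start to 50 bases after it, 5′ to 3′ on the strand of the gene, read from the RefSeq annotation of the TAIR10.1 genome. Capitals mark the telo-box letters AAACCCTA and the site II letters TGGGCC or TGGGCT, searched on both strands. TGGGCC read from the other strand is GGCCCA, so matches on opposite strands can overlap. RPP0A lies at chr2:16710723-16711022 on the minus strand and RPP0B at chr3:2825192-2825491 on the minus strand. RPL14A lies at chr2:8813582-8813881 (plus) and RPL14B at chr4:13595203-13595502 (minus). RPL7B lies at chr2:134406-134705 (minus) and RPL7D at chr3:4432797-4433096 (plus).
RPP0A: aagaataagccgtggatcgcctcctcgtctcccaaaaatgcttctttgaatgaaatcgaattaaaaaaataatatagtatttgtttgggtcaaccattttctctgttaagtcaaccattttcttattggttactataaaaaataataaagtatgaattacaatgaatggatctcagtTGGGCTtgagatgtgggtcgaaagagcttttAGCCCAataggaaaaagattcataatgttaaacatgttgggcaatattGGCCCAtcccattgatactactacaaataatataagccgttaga
RPP0B: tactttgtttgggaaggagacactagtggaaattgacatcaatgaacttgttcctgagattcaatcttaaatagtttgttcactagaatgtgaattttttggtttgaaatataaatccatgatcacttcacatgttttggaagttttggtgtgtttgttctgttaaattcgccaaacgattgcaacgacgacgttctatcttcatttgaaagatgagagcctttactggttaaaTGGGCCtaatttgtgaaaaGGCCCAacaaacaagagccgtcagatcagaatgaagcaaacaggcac
RPL14A: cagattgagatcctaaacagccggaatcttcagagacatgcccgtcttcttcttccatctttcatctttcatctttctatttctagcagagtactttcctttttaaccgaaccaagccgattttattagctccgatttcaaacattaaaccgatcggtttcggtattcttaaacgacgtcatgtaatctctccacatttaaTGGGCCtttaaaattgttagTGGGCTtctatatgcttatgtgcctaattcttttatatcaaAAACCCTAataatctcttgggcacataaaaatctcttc
RPL14B: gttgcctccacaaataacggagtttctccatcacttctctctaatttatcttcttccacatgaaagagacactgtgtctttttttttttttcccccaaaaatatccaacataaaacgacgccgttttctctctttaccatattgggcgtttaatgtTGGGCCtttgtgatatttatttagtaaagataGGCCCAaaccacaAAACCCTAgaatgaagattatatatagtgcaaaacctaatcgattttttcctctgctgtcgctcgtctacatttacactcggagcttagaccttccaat
RPL7B: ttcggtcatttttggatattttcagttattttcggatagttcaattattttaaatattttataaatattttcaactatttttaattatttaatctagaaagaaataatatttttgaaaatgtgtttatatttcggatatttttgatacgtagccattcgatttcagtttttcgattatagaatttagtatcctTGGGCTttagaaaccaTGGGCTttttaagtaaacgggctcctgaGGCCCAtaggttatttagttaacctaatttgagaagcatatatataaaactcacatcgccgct
RPL7D: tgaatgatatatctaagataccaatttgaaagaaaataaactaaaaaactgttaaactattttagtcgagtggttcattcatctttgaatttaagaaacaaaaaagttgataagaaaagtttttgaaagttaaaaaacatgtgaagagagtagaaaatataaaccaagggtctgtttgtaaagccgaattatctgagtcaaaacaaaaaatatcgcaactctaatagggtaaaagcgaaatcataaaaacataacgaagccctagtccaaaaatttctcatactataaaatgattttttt
RPP0A held 3 site II matches and RPP0B 2, and neither window held a telo-box. RPL14A and RPL14B each held 1 telo-box and 2 site II matches, with the telo-box after the gene start in RPL14A and before it in RPL14B. RPL7B held 3 site II matches, while the RPL7D window held neither set of letters.

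The genes of the Col libraries received 15646735 and 15637192 counts, those of atprmt3 18650053 and those of rps2a2b 15194770. The Col libraries differed by no more than counting noise, with a chi-square per gene of 0.989 over 20569 genes (p = 0.859), and were counted as 1 sample. Every genotype was therefore n = 1, no difference below has a replicate check, and no test here measures the spread between plants of a genotype. The one test run, further down, rests on an assumed spread. PRMT3 had 237 and 254 counts in Col, 132 in atprmt3 and 315 in rps2a2b, and RPS2A had 334, 318, 580 and 167. RPS2B had 0 counts in every library, and 3.7% of the 50-base stretches of its transcript are unique, so it does not check the label. For RPS2A, 72.3% of the stretches are unique. Of the other RPS2 genes, AT2G41840 had 5266, 5505, 7815 and 6265 counts in the same order, and AT3G57490 had 194, 157, 416 and 380. The summed level of 9 seed storage and oil body genes was 41.3 and 45.4 CPM in Col, 671 CPM in atprmt3 and 1310 CPM in rps2a2b, with 4, 4, 2 and 1 of the 9 at 0. The sum of 9 mitotic genes was 94.0 and 104 CPM in Col, 188 CPM in atprmt3 and 189 CPM in rps2a2b, with none at 0. A sum of 4 leaf genes was between 33100 and 33300 CPM in Col, 25900 CPM in atprmt3 and 19600 CPM in rps2a2b. In atprmt3, 2 of these leaf genes lay above Col (AT1G67090 and AT5G38410) and 2 below, and in rps2a2b all 4 lay below. The 4 root genes summed to between 2710 and 3720 CPM, most of it from AT3G09260. Of these, AT3G54220 was lower in both mutants and the other 3 were higher. No leaf or root gene was at 0. The part of these seed, mitotic, leaf and root genes in the results below was not tested. In whole seedlings, fewer cells of a type and less RNA per cell cannot be told apart.

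Transcripts of the large-subunit genes took a larger part of both mutant libraries. They made up 0.637% and 0.636% of the counts of the Col libraries, but 0.971% of atprmt3 and 0.973% of rps2a2b. Of the 49 genes, 46 passed the filter on low counts. The lowest count of any of the 46 in a library was 37, for RPP0A in a Col library, and the other 3 genes had 0 counts throughout. A gene is called higher or lower here when its CPM (counts relative to the TMM-scaled library size) differed at least 1.5-fold. In atprmt3, 23 of 46 were called higher than in Col, against 17.2% of all 20937 genes tested, and 0 were called lower, against 13.9%. In rps2a2b, 21 of 46 were called higher, against 18.1%, and 0 lower, against 14.1%. The median log2 fold change was 0.57 in atprmt3 and 0.56 in rps2a2b, where the medians of all genes were 0.01 and 0.00. Both mutant contrasts use the same Col libraries.

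At 2-fold the genes were near the background. In atprmt3, 4 of 46 (RPP0A, RPL9D, RPL14A and RPL10B) were at least 2-fold higher, against 8.96% of all genes, and in rps2a2b 3 of 46 (RPP0A, RPL9D and RPL10B), against 9.98%. When every genotype had to reach a mean of 50 counts, 22 of the large-subunit genes were at least 1.5-fold higher in atprmt3, against 10.1% of genes, and 21 in rps2a2b, against 10.7%. A likelihood ratio test in edgeR with an assumed biological coefficient of variation of 0.2 called 1 of 46 higher in atprmt3 (RPP0A), against 5.22% of genes. It called 3 of 46 in rps2a2b (RPP0A, RPL9D and RPL10B), against 6.01%. With the assumed coefficient at 0.1 the same test called 27 of 46 higher in atprmt3, against 14.8%, and 25 of 46 in rps2a2b, against 15.3%, so its outcome rested on the assumed value.

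The fold changes of all genes depended on transcript length, and the counts above depended on how that was treated. The median over all genes was 0.18 in atprmt3 and 0.15 in rps2a2b for the shortest 10% of transcripts, and −0.23 and −0.13 for the longest 10%. The large-subunit transcripts were short, at 621 to 2212 bp with a median of 1115 bp. With the trend on length and GC content removed by least squares, 6 of 46 stayed at least 1.5-fold higher in atprmt3, against 13.7% of genes, and 7 of 46 in rps2a2b, against 14.7%, and RPL7D was called lower in atprmt3. These shares were near the background, while the medians over the 46 genes were 0.35 and 0.32, where those of all genes were −0.06 and −0.10. A robust fit of the same trend, chosen after the least-squares result was seen, left 18 of 46 higher in atprmt3, against 15.7%, and 18 of 46 in rps2a2b, against 17.3%, with medians of 0.47 and 0.53. The call of single genes at 1.5-fold thus rested on this choice, whereas the medians stayed above those of all genes under both fits.

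**Figure D1:**
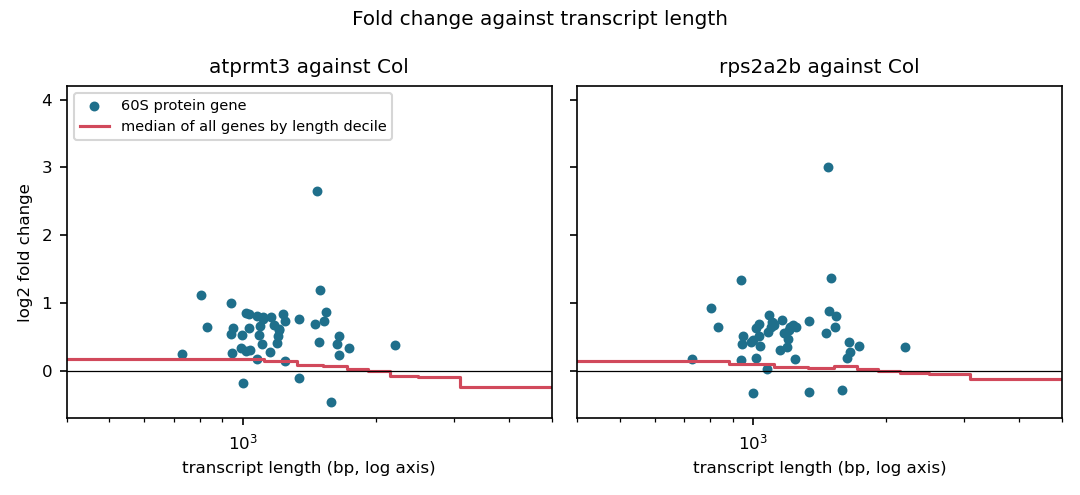
Log2 fold change of each of the 46 large-subunit genes (points) against transcript length in bp on a log axis, for atprmt3 and rps2a2b, each n = 1 against summed Col. The red steps are the medians of all genes tested by bins of 10% of transcripts in order of length, from 0.18 and 0.15 at the short end to −0.23 and −0.13 at the long end, and most points lie above them.

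In each mutant, 43 of the 46 genes lay above 0, against 10560 of all 20937 genes tested in atprmt3 and 10540 in rps2a2b. The large-subunit genes below 0 were RPP0C, RPL7D and RPL9C. With the length and GC trend removed by least squares, 38 of 46 lay above 0 in each. The medians of all genes were then −0.06 in atprmt3 and −0.10 in rps2a2b. RPL6C, RPL14B and RPL18aB were then also below 0 in both mutants, RPL10C and RPL13D in atprmt3, and RPL9B and RPL13aD in rps2a2b. The rest of the large subunit, 65 genes for L19 to L40, gave 41 and 32 of 61 tested genes called higher, 0 called lower and medians of 0.67 and 0.61. In that list the genes with the most counts were AT1G02780, with log2 fold changes of 0.64 and 0.67, and AT1G52300, with 0.58 and 0.72. The L5 and L11 genes, whose proteins join the subunit together with 5S rRNA, gave 3 of 6 called higher in each mutant and medians of 0.56 and 0.53.

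Family totals, which do not depend on which paralog a counted read was assigned to, lay closer together than the single genes. Reads with several alignments were not counted, so the totals leave out reads that fit more than 1 paralog equally. All 18 totals were above 0 in both mutants, from 0.12 (L9) to 0.76 (L10a) in atprmt3 and from 0.04 (L9) to 0.69 (L18) in rps2a2b on the log2 scale. The length and GC trend was not removed from the totals. Both L9 values lay below the medians of all genes of 881 to 1117 bp, the lengths around RPL9B and RPL9C, which were 0.173 in atprmt3 and 0.095 in rps2a2b. The standard deviation of the totals over families was 0.18 in each mutant, against 0.45 and 0.50 over the 46 genes. Without RPP0A, which is rare in Col, the values over the other 45 genes were 0.32 and 0.35. Summing over paralogs narrows such a spread by itself, and sums of unrelated genes were not compared. In atprmt3, 9 of 18 totals were at least 1.5-fold higher, and 3 of 18 in rps2a2b. Of all single genes tested, 17.2% were in atprmt3 and 18.1% in rps2a2b, so the count of totals in rps2a2b was near that share. The values after ± below are standard errors for reads, widened by a factor of 6.12 on the variance. This factor was measured between the mutant libraries over genes whose counts summed to 10 to 99. Over all 21217 genes of at least 10 counts it was 17.3, so the errors of genes with many counts are too small. The errors also hold differences between the mutant libraries, and they are no measure of the spread between plants of a genotype. The L9 totals were 0.12 ± 0.09 in atprmt3 and 0.04 ± 0.095 in rps2a2b, within 2 standard errors of 0. Pairs of values in parentheses or without a unit are log2 fold changes against Col, first in atprmt3 and then in rps2a2b.

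**Figure D2:**
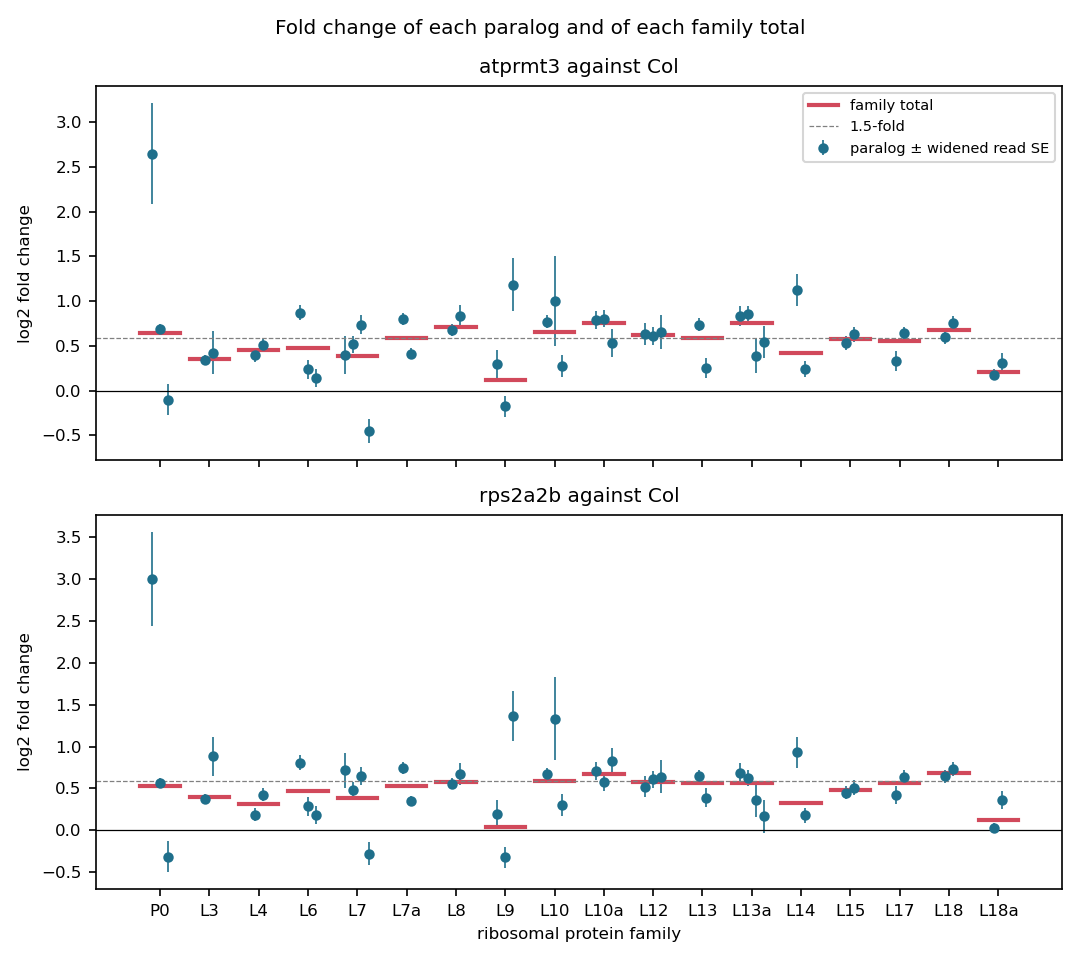
Log2 fold change of every tested paralog (points with the widened read SE) and of each family total (red bars) in atprmt3 and rps2a2b against Col, by family, each n = 1. All family totals lie between 0.04 and 0.76, while RPP0A reaches 2.65 and 3.00 and RPP0C, RPL7D and RPL9C lie below 0.

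The P-stalk, which recruits the elongation factors, is anchored by P0 (uL10) next to L12 (uL11). The P0 total was 444 CPM in Col, 695 CPM in atprmt3 and 638 CPM in rps2a2b, log2 fold changes of 0.65 and 0.53. RPP0B (AT3G09200) supplied most of it, at 386 and 390.0 CPM in Col, 628 CPM in atprmt3 and 574 CPM in rps2a2b, both mutants being above both Col libraries (0.69 ± 0.06 and 0.56 ± 0.06). RPP0A (AT2G40010) was rare in Col and had the highest fold change of the 46 genes. Its levels were 3.08 and 2.48 CPM in Col, 17.5 CPM in atprmt3 and 22.3 CPM in rps2a2b, which gave log2 fold changes of 2.65 ± 0.57 and 3.00 ± 0.56, or 6.27-fold and 8.01-fold. The Col values rest on 46 and 37 counts, against 326 and 355 in the mutants. RPP0A shares its locus with AT2G40008, a long noncoding RNA on the other strand, which had 0, 0, 3 and 4 counts. RPP0C (AT3G11250) was at 53.0 and 52.4 CPM in Col, 49.2 CPM in atprmt3 and 42.4 CPM in rps2a2b, so both mutants were below both Col libraries, within 2 standard errors (−0.10 ± 0.17 and −0.31 ± 0.18). Its coding sequence is 89.7% identical to that of RPP0B, from which it differed in direction.

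L12 had the closest paralogs of any family in atprmt3. RPL12A, RPL12B and RPL12C had log2 fold changes of 0.63, 0.61 and 0.66 in atprmt3 and of 0.52, 0.61 and 0.64 in rps2a2b. RPL12B, the most abundant per kilobase in Col, was at 121 and 123 CPM in Col, 186 CPM in atprmt3 and 186 CPM in rps2a2b. These 3 genes have 1 exon each.

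L3 (uL3), L8 (uL2) and L10 (uL16) reach towards the peptidyl transferase centre. RPL3A, named embryo defective in the annotation, was the main L3 gene at 458 and 469.6 CPM in Col, 589 CPM in atprmt3 and 602 CPM in rps2a2b (0.34 ± 0.05 and 0.37 ± 0.06), below 1.5-fold in both mutants. RPL3B was at 21.0 and 23.7 CPM in Col, 29.9 CPM in atprmt3 and 41.2 CPM in rps2a2b, with the highest value in rps2a2b (0.42 ± 0.24 and 0.88 ± 0.23). RPL8A, also named embryo defective, was at 288 and 296 CPM in Col, 467 CPM in atprmt3 and 429 CPM in rps2a2b (0.68 ± 0.06 and 0.56 ± 0.07). RPL8C had log2 fold changes of 0.84 and 0.67. RPL10A, the SAC52 gene and the main source of L10, was at 231 and 224 CPM in Col, 388 CPM in atprmt3 and 362 CPM in rps2a2b, higher in both mutants (0.77 ± 0.07 and 0.67 ± 0.08). RPL10C, listed as SAG24, was at 85.6 and 88.8 CPM in Col, 106 CPM in atprmt3 and 108 CPM in rps2a2b, a smaller difference (0.28 ± 0.12 and 0.30 ± 0.13). RPL10B was the rarest of the 3 at 4.35 and 4.62 CPM in Col, 8.998 CPM in atprmt3 and 11.3 CPM in rps2a2b. In these 3 families every tested gene was above both Col libraries in both mutants. The log2 fold changes of RPL10B, 1.00 ± 0.50 and 1.33 ± 0.49, rest on 65 and 69 counts in Col and carry wide errors.

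L4 (uL4) and L17 (uL22) line the narrow part of the exit tunnel. The L4 genes were equally abundant in Col, with RPL4A at 235 and 228 CPM in Col, 306 CPM in atprmt3 and 264 CPM in rps2a2b and RPL4D at 234, 229, 329 and 310.3 CPM in the same order. Their log2 fold changes were 0.40 and 0.51 in atprmt3 and 0.19 and 0.42 in rps2a2b, so none was called. RPL17B was at 237 and 230.5 CPM in Col, 365 CPM in atprmt3 and 364 CPM in rps2a2b and was called in both mutants (0.64 ± 0.07 and 0.64 ± 0.07). RPL17A had 0.33 and 0.42 and was called in neither.

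L10a (uL1) forms the L1 stalk on the side where spent tRNA leaves, and its family total was 293, 495 and 467 CPM in Col, atprmt3 and rps2a2b. RPL10aB is PIGGYBACK1, a gene known from mutants with altered leaf polarity. It was at 126 and 134 CPM in Col, 227 CPM in atprmt3 and 193 CPM in rps2a2b, higher in both mutants (0.81 ± 0.10 and 0.57 ± 0.10). RPL10aA had log2 fold changes of 0.79 and 0.71, and RPL10aC of 0.53 and 0.83.

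L9 (uL6), which sits near the base of the P-stalk, had the lowest family total, 175 CPM in Col, 189.6 CPM in atprmt3 and 179.6 CPM in rps2a2b. RPL9C, or PIGGYBACK2, was the main gene at 116 and 108 CPM in Col, 99.1 CPM in atprmt3 and 89.5 CPM in rps2a2b, with both mutants below both Col libraries (−0.17 ± 0.12 and −0.32 ± 0.13). RPL9B had 0.30 and 0.20. The coding sequences of RPL9B and RPL9C are 99.1% identical. Of the 50-base stretches of their transcripts, 46.6% and 42.9% occur nowhere else in the genome or in the other transcripts examined. Their separate values and the L9 total are therefore uncertain. RPL9D, whose transcript is unique throughout, was at 12.7 and 12.4 CPM in Col, 28.6 CPM in atprmt3 and 32.4 CPM in rps2a2b, more than 2-fold higher in each mutant (1.19 ± 0.29 and 1.37 ± 0.29).

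**Figure D3:**
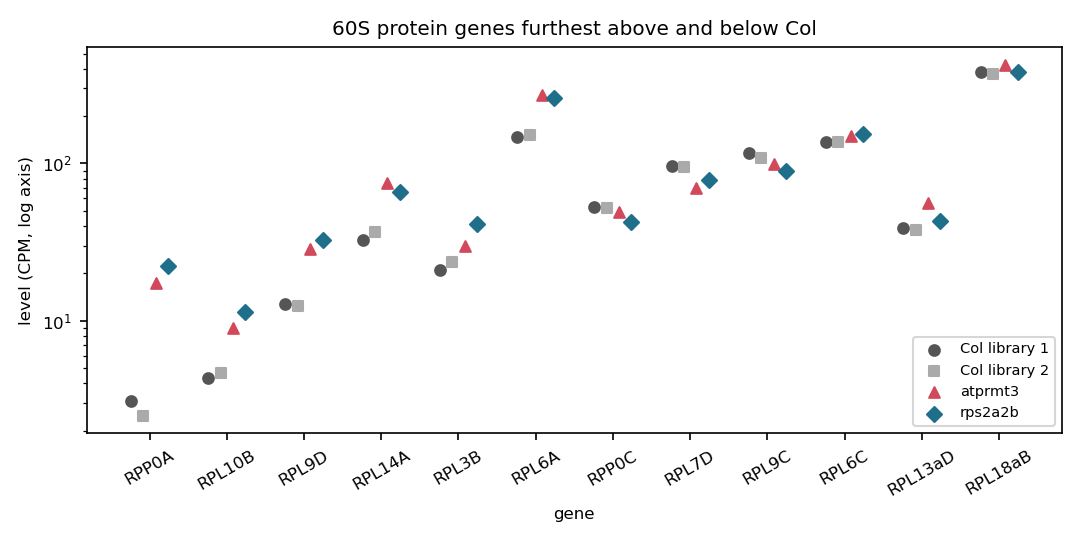
Level in CPM on a log axis of the 12 large-subunit genes with the 5 highest or 5 lowest fold changes in either mutant, in each of the 4 libraries. The Col libraries sit together, the mutants lie above them for RPP0A, RPL10B, RPL9D, RPL14A, RPL3B and RPL6A, and below them for RPP0C, RPL7D and RPL9C.

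Several of the remaining proteins lie on the solvent side, and their paralogs often differed. For L6 (eL6), RPL6A was at 148 and 151 CPM in Col, 274 CPM in atprmt3 and 262 CPM in rps2a2b (0.87 ± 0.09 and 0.81 ± 0.09), well above Col in both mutants. RPL6C, the main L6 gene per kilobase, was at 136 and 137 CPM in Col, 150.5 CPM in atprmt3 and 155 CPM in rps2a2b, near Col (0.14 ± 0.10 and 0.18 ± 0.10), and RPL6B had 0.24 and 0.29. RPL6B and RPL6C are neighbours on chromosome 1 with 94.2% coding identity. For L14 (eL14), the minor gene RPL14A was at 32.6 and 36.6 CPM in Col, 75.5 CPM in atprmt3 and 66.1 CPM in rps2a2b (1.13 ± 0.18 and 0.93 ± 0.19), and the major gene RPL14B was at 182 and 185 CPM in Col, 217 CPM in atprmt3 and 208 CPM in rps2a2b, closer to Col (0.24 ± 0.09 and 0.18 ± 0.09).

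The L7 (uL30) family had 4 paralogs, and RPL7D was the lowest of all 46 genes in atprmt3. It was at 96.0 and 95.1 CPM in Col, 69.7 CPM in atprmt3 and 78.7 CPM in rps2a2b, with both mutants below both Col libraries (−0.45 ± 0.13 and −0.28 ± 0.14). RPL7B was the main gene at 147 and 146 CPM in Col, 209 CPM in atprmt3 and 204 CPM in rps2a2b (0.52 ± 0.09 and 0.48 ± 0.10), and RPL7C was at 102 and 103 CPM in Col, 171 CPM in atprmt3 and 161 CPM in rps2a2b (0.74 ± 0.11 and 0.65 ± 0.11). RPL7A, the most divergent in coding sequence with 60.6% to 63.1% identity to the others, had 0.40 and 0.72. The L7 total was 0.39 in atprmt3 and 0.39 in rps2a2b.

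L7a (eL8), L13 (eL13) and L15 (eL15) are bound to rRNA in the body of the subunit. RPL7aB, the more abundant L7a gene, was at 348 and 343 CPM in Col, 459.6 CPM in atprmt3 and 440.5 CPM in rps2a2b (0.41 ± 0.06 and 0.35 ± 0.06), and RPL7aA was at 250.4 and 256 CPM in Col, 441 CPM in atprmt3 and 424 CPM in rps2a2b (0.80 ± 0.07 and 0.74 ± 0.07). RPL13B, or BBC1, was at 209 and 206 CPM in Col, 346 CPM in atprmt3 and 324 CPM in rps2a2b (0.74 ± 0.08 and 0.64 ± 0.08), while RPL13D was at 106 and 109.7 CPM in Col, 129 CPM in atprmt3 and 142 CPM in rps2a2b and was called in neither mutant (0.26 ± 0.11 and 0.39 ± 0.11). RPL15A was at 226 and 219 CPM in Col, 322 CPM in atprmt3 and 304 CPM in rps2a2b (0.53 ± 0.08 and 0.45 ± 0.08), and RPL15B had 0.63 and 0.51. All 6 genes were above both Col libraries in both mutants, with the larger change in the less abundant L7a gene and in the more abundant L13 gene.

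L13a (uL13) is a protein that leaves the ribosome to repress selected mRNAs in human cells. Its main gene RPL13aB was at 142 and 142 CPM in Col, 257 CPM in atprmt3 and 219 CPM in rps2a2b (0.86 ± 0.09 and 0.63 ± 0.10). RPL13aA had 0.83 and 0.69, RPL13aC had 0.39 and 0.36, and RPL13aD was at 38.9 and 38.0 CPM in Col, 56.0 CPM in atprmt3 and 43.2 CPM in rps2a2b (0.54 ± 0.18 and 0.17 ± 0.20). L18 (eL18) had the highest family total change in rps2a2b, with RPL18B at 228 and 229 CPM in Col, 345 CPM in atprmt3 and 357 CPM in rps2a2b (0.60 ± 0.07 and 0.65 ± 0.08) and RPL18C at 0.76 and 0.73. L18a (eL20) was close to Col. RPL18aB, at 379.7 and 373 CPM in Col, 425 CPM in atprmt3 and 384 CPM in rps2a2b, had the highest RPKM of the 46 genes in Col and differed little from Col (0.18 ± 0.06 and 0.03 ± 0.06), and RPL18aC had 0.31 and 0.37.

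Per kilobase of transcript, the make-up of families shifted by at least 5 percentage points in 8 of 18 cases. Shares were computed from reads per kilobase (RPKM) within a library and so do not depend on scaling between libraries, and their intervals cover counting error only. A total of 15 paralogs in the P0, L6, L7, L7a, L9, L10, L13 and L14 families moved by at least 5 percentage points in a mutant. Of L6, RPL6A held 34.6% in Col (95% exact binomial interval 33.8 to 35.5), 46.1% in atprmt3 (45.2 to 47.1) and 44.2% in rps2a2b (43.2 to 45.3). Of L14, RPL14A held 14.6% in Col (95% exact binomial interval 13.8 to 15.5), 24.0% in atprmt3 (22.9 to 25.1) and 22.4% in rps2a2b (21.2 to 23.6). These intervals do not overlap between Col and either mutant, but they leave out differences between libraries, so this is no test. Shifts in other gene families were not computed.

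In L7, the share of RPL7D was 21.9% in Col, 12.1% in atprmt3 and 13.5% in rps2a2b, while that of RPL7C was 24.4% in Col, 30.7% in atprmt3 and 28.6% in rps2a2b. In L9, RPL9C held 65.8% in Col, 55.3% in atprmt3 and 53.3% in rps2a2b, and RPL9D 4.94% in Col, 10.7% in atprmt3 and 12.9% in rps2a2b. Counted per unique 50-base stretch in place of transcript length, RPL9D held 2.20% in Col, 4.94% in atprmt3 and 6.05% in rps2a2b, so its share was higher in the mutants on either scale. RPP0C held 12.8% in Col, 7.66% in atprmt3 and 7.19% in rps2a2b of P0, and RPP0A, with the largest fold change, 0.613% in Col, 2.47% in atprmt3 and 3.44% in rps2a2b. RPL7aA held 43.0% in Col, 49.7% in atprmt3 and 49.8% in rps2a2b of L7a. RPL13B held 59.2% in Col, 67.0% in atprmt3 and 63.4% in rps2a2b of L13, and RPL10C 26.6% in Col, 20.4% in atprmt3 and 21.7% in rps2a2b of L10. The other 10 families moved by at most 4.18 points in atprmt3 and 4.62 points in rps2a2b.

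**Figure D4:**
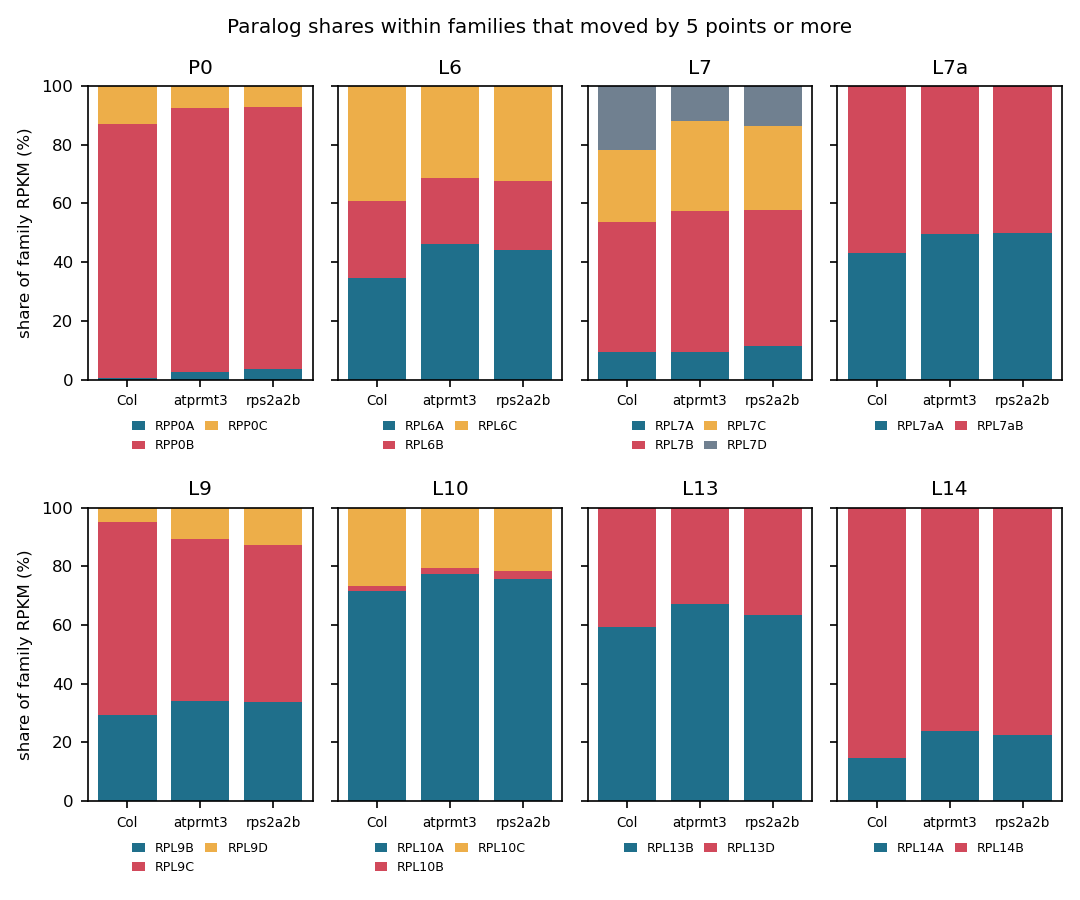
Share of each paralog in the summed RPKM of its family (%, stacked bars from 0 to 100) in Col, atprmt3 and rps2a2b for the 8 families in which a share moved by at least 5 points. RPL6A, RPL7aA, RPL9D and RPL14A take larger shares in both mutants, and RPL6C, RPL7D, RPL9C and RPP0C smaller ones.

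The mutants were close to each other. In rps2a2b against atprmt3, 0 of 46 genes were called higher, against 11.6% of all genes, and 0 lower, against 9.79%. The median was −0.06, the range was −0.37 to 0.46, and 40 of 46 genes lay within 0.25 of 0. The quartiles of all genes tested were −0.25 and 0.26, and genes of like counts were not compared. Of the 46 genes, the upper end was RPL3B (0.46 ± 0.21) and the lower end RPL13aD (−0.37 ± 0.17). Family totals ranged from −0.20 (L13a) to 0.05 (L3), with 4 of 18 above 0. Values this close to 0 changed sign for some genes with the scaling or the length trend: 15 of 46 genes lay above 0 with TMM factors and 24 of 46 with total counts alone. With 1 library per mutant, this does not show that the genotypes act alike.

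Fold changes showed little relation to the level of a gene. Across the 46 genes, the Spearman rho of the log2 fold change with the mean CPM was 0.03 in atprmt3 and −0.14 in rps2a2b, a description of genes that share libraries and depth. The most abundant paralog of each family had a median of 0.57 in atprmt3 and 0.52 in rps2a2b, and the 28 other tested paralogs had 0.59 and 0.65. The ranges were wider among the latter, from −0.45 to 2.65 in atprmt3 and from −0.31 to 3.00 in rps2a2b.

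RPL8B (AT3G51190), RPL13C (AT3G48960) and RPL18aA (AT1G29965) had 0 counts in all 4 libraries. A count of 0 allows up to 3 counts, or 0.1 CPM in Col, 0.161 CPM in atprmt3 and 0.189 CPM in rps2a2b. Their transcripts are unique throughout, at 82.5%, 86.3% and 85.1% coding identity with RPL8A, RPL13B and RPL18aB. All 50-base stretches were unique for 33 of the 46 tested genes, and at least 95% for 44. Of the 49 genes, 16 overlap another annotated gene, and the strand setting of the counting is not given in the sources used here.

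The promoter windows shared letters that the choice of genes did not use. Site II letters stood in 43 of 49 windows (87.8%), against 21.7% of 27443 windows of protein-coding nuclear genes. The telo-box stood in 25 of 49 (51.0%), against 6.2%, and both together in 22 (44.9%), against 2.2%. Of the 65 windows of L19 to L40, 76.9% held site II letters, 44.6% the telo-box and 36.9% both. The letters were therefore not particular to these 49 genes. TATAAA, searched on both strands as well, stood in 30 (61.2%), against 52.1%. In the 250 upstream bases alone, 39 held site II (79.6%, against 19.2%), 11 the telo-box (22.4%, against 4.5%) and 10 both (20.4%, against 1.4%). The telo-box thus often stood after the annotated start. The windows without site II letters were those of RPL6C, RPL7D, RPL7aA, RPL9D, RPL12C and RPL13C.

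Genes with and without the letters had overlapping fold changes. The 23 tested genes with a telo-box had medians of 0.53 in atprmt3 and 0.42 in rps2a2b, and the 23 without had 0.64 and 0.65. The 5 tested genes without site II letters ranged from −0.45 (RPL7D) to 1.19 (RPL9D) in atprmt3 and from −0.28 to 1.37 in rps2a2b. RPP0A and RPP0C were at opposite ends of the P0 family in both mutants.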

How the data were processed

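RNA was taken from whole seedlings, and per the labels' protocols strand-specific mRNA libraries were made. The deposited values are raw counts of reads per gene for 33341 genes. Per the submitters' processing notes TopHat2, HTSeq, edgeR and the TAIR10 build were used, without versions. The strand setting and read length are not given in the sources used here. Summary lines of the deposited count files were left out, and reads with several alignments were 6.74% to 7.16% per library, ambiguous reads 2.25% to 3.26% and reads on no gene 1.37% to 1.80%. Of the gene identifiers, 33056 matched the TAIR10.1 annotation, whose nuclear coordinates are those of TAIR10.

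The large-subunit genes and all lists were chosen with earlier results of these data known. Counts were scaled by TMM factors in edgeR 4.0.16 (R 4.3.3) and 20937 genes passed filterByExpr with its minimum count at 10 and its minimum total at 15. The Col libraries were summed. Log2 fold changes are differences of log2 CPM with a small prior count, so they understate changes of low genes. Standard errors use a variance factor of 6.12, the chi-square per gene of atprmt3 against rps2a2b over the 4263 genes whose counts summed to 10 to 99, with the extra part doubled for summed Col. The factor also holds real differences between the mutants. The computation was checked on simulated data. Named genes are the most abundant paralog of each family per kilobase in Col, the 5 highest and 5 lowest fold changes of each mutant, paralogs whose share moved by at least 5 points and genes under the filter. RPL10aA, RPL12A and other genes given by 2 fold changes complete the families. Alternatives were DESeq2 1.42.0 size factors, upper-quartile or no scaling, other filters and prior counts, either Col library left out, a 2-fold call, likelihood ratio tests with an assumed coefficient of variation of 0.2 or 0.1 and an adjusted p of 0.05, and trends on length and GC content (mgcv 1.9.3 for least squares), over 20808 genes. Shares of 50-base stretches, coding identity and motifs were computed in Python 3.11.15 with Biopython 1.88.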

Additional observations from a re-analysis of the deposited data

How the results depend on the processing

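No paired analysis was possible because no mutant library belongs to a particular Col library. The count of genes at least 1.5-fold higher, 23 in atprmt3 and 21 in rps2a2b, was 6 and 7 with the length and GC trend removed by least squares (medians 0.35 and 0.32, and 1 gene lower in atprmt3). It was 4 and 3 at 2-fold, and 1 and 3 in likelihood ratio tests with an assumed coefficient of variation of 0.2, but 27 and 25 with 0.1. The robust trend, added after the least-squares result was seen, gave medians of 0.47 in atprmt3 and −0.01 in rps2a2b against atprmt3. Without TMM factors the medians were 0.64, 0.69 and 0.00 (rps2a2b against atprmt3), where those of all genes were 0.08, 0.14 and 0.06. Paralog shares depended on the length used for each gene. RPL6C held 39.1% of L6 in Col per kilobase and 33.5% by raw reads. RPP0C held 12.8% of P0 in Col and 7.66% in atprmt3 per kilobase, and 11.9% and 7.08% by raw reads. RPL6A held more of L6 in both mutants than in Col on either scale. Upstream bases alone held the telo-box in 11 windows, and both motifs in 10. The cause was not tested. Without either Col library the counts were 23 to 24 and 21 to 22, and the medians 0.56 to 0.59 and 0.53 to 0.58. DESeq2 or upper-quartile factors, other filters and a prior count of 2 kept the counts within 1.5 times and the medians within their widened read error. No value past 1.5-fold changed sign in any setting run, while 11 values of the 46 genes against Col, of at most 0.28, did so, 10 with the least-squares trend and 1 with the robust trend. With n = 1 per genotype, no setting measures variation between plants.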
